A study of Canis lupus familiaris with 8 samples.

Results

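The genes described are 4 that cells switch on or depend on when oxygen is short and glucose is burned without it: ADM, VEGFA, SLC2A1 and GAPDH. Every gene probe of the array whose accession maps to one of these symbols was taken, which gave 4 of the 1458 genes named here and 12 probes of 43603, with 1 for ADM, 2 for VEGFA, 2 for SLC2A1 and 7 for GAPDH. All 12 were well above background on all 8 arrays. The RNA came from CMT-Stylo, a canine mammary carcinoma cell line, and from CMT-Star, a subline of it selected in rising doxorubicin until it withstood 100 nM; doxorubicin is an anthracycline that poisons topoisomerase II. Each line was measured unsorted (Stylo parent and Star parent, "parent" being the labels' word) and after flow sorting for CD44+, CD24-/low, ALDH+ cells, which the labels call cancer stem cells (Stylo CSC and Star CSC). Both lines were grown in DMEM with serum. The Star samples are labelled as treated with doxorubicin and the Stylo samples as untreated, and the labels do not say whether the drug was present when cells were taken. No group was grown in low oxygen according to the labels. Each of the 4 groups had 2 arrays, and nothing in the labels says that these came from separate cultures, so p-values measure the spread between arrays, which may be technical. The drug-resistant line is a single subline.

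When oxygen falls, the alpha subunits of the hypoxia-inducible factors (HIF), which VHL otherwise marks for destruction, accumulate and switch on genes that bring in blood vessels and glucose. ADM encodes adrenomedullin, a secreted peptide that widens vessels, and VEGFA encodes the secreted growth factor that makes endothelial cells sprout. SLC2A1 encodes GLUT1, a glucose transporter of the plasma membrane, and GAPDH encodes the glycolytic enzyme whose step yields NADH. HIF activity is set largely at the level of protein stability, so a transcript of HIF1A is not a measure of it. GAPDH is also widely used as a reference gene to which other transcripts are scaled. In mammary tumours, targets of HIF are known for high expression in poorly perfused regions.

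Levels are log2 of the processed signal less the 75th percentile of all probes on the same array, in log2 units, and each probe has its own scale, so levels are compared between groups and never between probes. Differences are differences of group means of these levels, with a standard error (SE) from limma. A difference was called when its Benjamini-Hochberg adjusted p over all 26825 tested probes was under 0.05 and it was at least 2-fold. The 75th percentile of the processed signal was 88.8 and 69.5 on the Stylo parent arrays and 297 to 540.0 on the other 6, and the share of spots well above background was 47.4% and 46.7% on the Stylo parent arrays and 55.5% to 60.7% on the others. The Stylo parent arrays also put 32.4% and 33.7% of all signal in their 100 brightest spots, against 12.7% to 22.7% elsewhere. Slide 1 held the 4 arrays of the sensitive line and slide 2 the 4 of the resistant line, so line and slide cannot be told apart, while sorted and unsorted cells of a line shared a slide. Replicate arrays correlated at 0.981 to 0.996 over tested probes, and no spot was saturated. Markers of mesenchymal cells (5 of 6 listed genes had a named probe, all 5 above background on every array) summed to a scaled signal of 663 to 738 in Stylo parent, 1290 to 1399 in Stylo CSC, 375 to 441 in Star parent and 292 to 318 in Star CSC. Of 8 listed mammary epithelial markers 4 had a named probe. The adherens junction gene CDH1 was not above background on either Stylo parent array, while KRT14, a basal keratin, was above it on all arrays of both lines. CLDN3 was above it on both arrays of each Stylo group and on 1 of 2 in each Star group. KRT19 was above it on both Star CSC arrays, on 1 of 2 Star parent arrays and on no Stylo array. From Stylo parent to Stylo CSC, CDH1 was called higher, at least 6.12-fold, and CLDN3 lower by 2.26. KRT19, below background on all 4 Stylo arrays, was called lower by 1.95. Before scaling, KRT19 signals were 5.88 and 3.05 in Stylo parent and 2.95 and 6.07 in Stylo CSC. Those of CLDN3 were 61.9 and 41.0 in Stylo parent and 41.4 and 39.9 in Stylo CSC. The sizes of both falls thus depend on the scaling. In the same comparison KRT14 was called lower at 1 of its 2 probes. Its brighter probe was not called, at -0.98 (adjusted p 0.00293, limma), less than 2-fold.

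**Figure D1:**
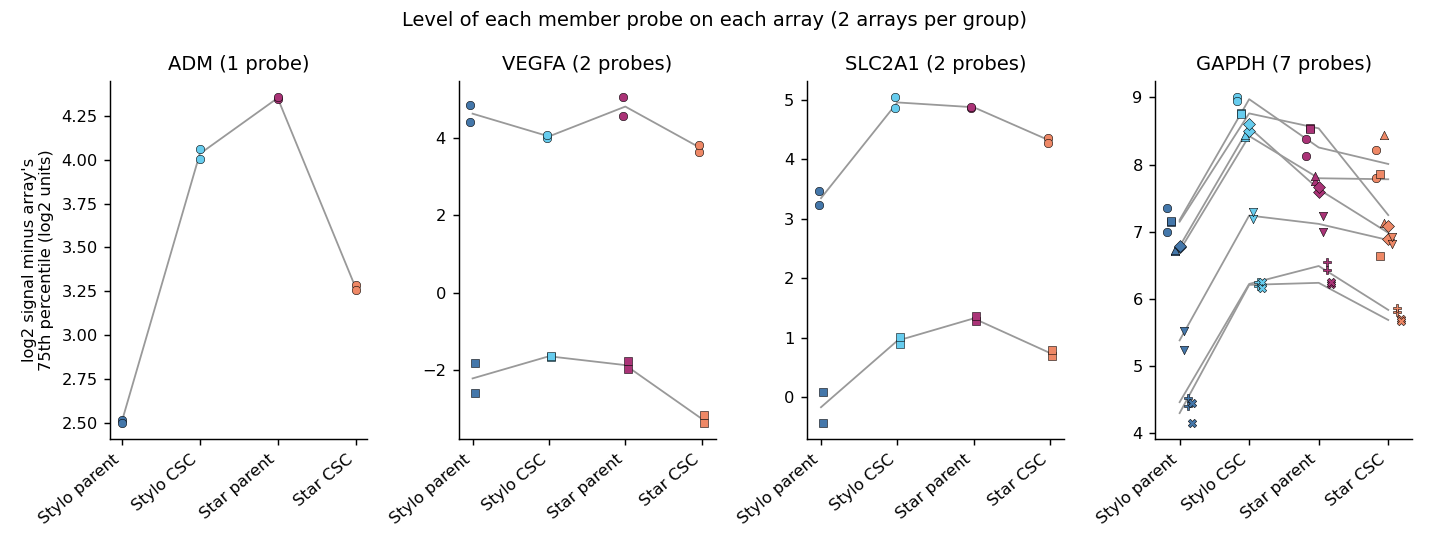
Level of each of the 12 probes on each array, in log2 units relative to the array's 75th percentile, with 1 point per array (2 per group) and lines joining group means; each marker shape is 1 probe. By group mean, ADM, both SLC2A1 probes and all 7 GAPDH probes are lowest in Stylo parent, while both VEGFA probes are lowest in Star CSC. At GAPDH A_11_P053321 the second Star CSC array (6.64) lies below both Stylo parent arrays (7.14 and 7.16).

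In the unsorted cells, the resistant line had higher ADM, SLC2A1 and GAPDH than the sensitive line, while VEGFA was not called. All 3 stayed above 0 under each scaling tried other than GAPDH scaling, which centres each array on its own mean GAPDH level. On that scale the differences were 0.40 for ADM, 0.088 for SLC2A1 and -0.36 for the brightest GAPDH probe, and neither ADM nor SLC2A1 was called. ADM, the vasodilator peptide gene, was 3.58-fold higher, the transporter gene SLC2A1 2.89-fold higher and GAPDH 2.11-fold higher at the brightest probe of each. Of the 12 probes, 9 were called higher (6 of GAPDH, 2 of SLC2A1 and 1 of ADM) and 0 lower. Probes of a gene read the same gene's RNA, so counts and medians over the 12 weigh GAPDH most. Over all tested probes 24.6% were called higher and 31.9% lower in this comparison, and the median difference was -0.20. The median over the 12 probes was 1.44.

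ADM stood at 2.52 and 2.50 on the Stylo parent arrays, 4.06 and 4.01 on the Stylo CSC arrays, 4.35 and 4.36 on the Star parent arrays, and 3.29 and 3.26 on the Star CSC arrays. The arrays of each group lay together and no 2 groups overlapped. The peptide gene was highest in Star parent, then in Stylo CSC, then in Star CSC, and lowest in Stylo parent. Star parent exceeded Stylo parent by 1.84 (SE 0.086, adjusted p 1.01e-05, limma). Each step of the order had an adjusted p under the threshold: Star parent over Stylo CSC by 0.32 (adjusted p 0.0240), Stylo CSC over Star CSC by 0.76 (0.000823) and Star CSC over Stylo parent by 0.76 (0.000312), all less than 2-fold. The scaling bears on the size: before it, the ADM processed signal was 506 and 392 on the Stylo parent arrays and 4429 to 7554 on the other 6.

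SLC2A1 has probes A_11_P121581, the brighter, and A_11_P0000026893. The brighter read 3.47 and 3.23 in Stylo parent, 4.87 and 5.05 in Stylo CSC, 4.87 and 4.89 in Star parent, and 4.36 and 4.27 in Star CSC. Both Stylo parent arrays were the lowest, and Stylo CSC and Star parent overlapped. Star parent exceeded Stylo parent by 1.53 (SE 0.12, adjusted p 7.10e-05, limma), and the second probe gave 1.5 (SE 0.18, adjusted p 0.000446), so both probes of the glucose transporter were close in size. In the order of levels, Stylo CSC and Star parent did not differ beyond their spread at either probe (-0.081, adjusted p 0.603, and 0.38, adjusted p 0.131). Star CSC was below them at the brighter probe, by 0.56 against Star parent (adjusted p 0.0203), and exceeded Stylo parent by 0.97 (adjusted p 0.000522).

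GAPDH at its brightest probe, A_11_P050246, read 7.35 and 7.00 in Stylo parent, 9.0 and 8.95 in Stylo CSC, 8.13 and 8.38 in Star parent, and 7.80 and 8.21 in Star CSC. The glycolytic enzyme was lowest on both Stylo parent arrays and highest on both Stylo CSC arrays, and the 2 Star groups overlapped. Star parent exceeded Stylo parent by 1.08 (SE 0.19, adjusted p 0.00267, limma), a call that was lost without the second Star parent array (0.95) or without the second Stylo parent array (0.90), each under 2-fold. Over the 7 GAPDH probes this difference ran from 0.85 to 2.03 with a median of 1.39, and 6 were called; the exception, A_11_P052601, differed by 0.85 (adjusted p 0.000537), less than 2-fold. The calls at A_11_P053321 (1.39) and A_11_P059521 (1.08) were lost when any 1 of the 4 arrays compared was left out, at differences of 1.38 to 1.40 and 1.04 to 1.12. The 7 probes thus shared a direction and differed by 1.18 among themselves in size.

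VEGFA, the vessel growth factor, was not called in this comparison. Its brighter probe, A_11_P0000018814, read 4.43 and 4.86 in Stylo parent, 4.02 and 4.08 in Stylo CSC, 4.59 and 5.07 in Star parent, and 3.65 and 3.83 in Star CSC. The unsorted groups of the 2 lines overlapped, and both lay above both sorted groups. Star parent minus Stylo parent was 0.18 (SE 0.21, 95% interval -0.34 to 0.71, adjusted p 0.456, limma) and turned to -0.056 without the second Star parent array and to -0.030 without the first Stylo parent array. The order was Star parent, Stylo parent, Stylo CSC and Star CSC. The step from Stylo parent down to Stylo CSC had an adjusted p of 0.0439 at less than 2-fold, and Stylo CSC did not differ from Star CSC beyond the spread (-0.32, adjusted p 0.244).

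The second VEGFA probe, A_11_P0000019893, is dim, with processed signals of 14.4 to 108. It read -2.62 and -1.84 in Stylo parent, -1.67 and -1.64 in Stylo CSC, -1.78 and -1.99 in Star parent, and -3.38 and -3.17 in Star CSC. Both Star CSC arrays lay below the other 6, and the other 3 groups lay close together, with Stylo parent and Star parent overlapping. Star parent minus Stylo parent was 0.35 (SE 0.26, adjusted p 0.261) and -0.045 without the first Stylo parent array. Stylo CSC, Star parent and Stylo parent, in that order, did not differ beyond their spread from one to the next.

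**Figure D2:**
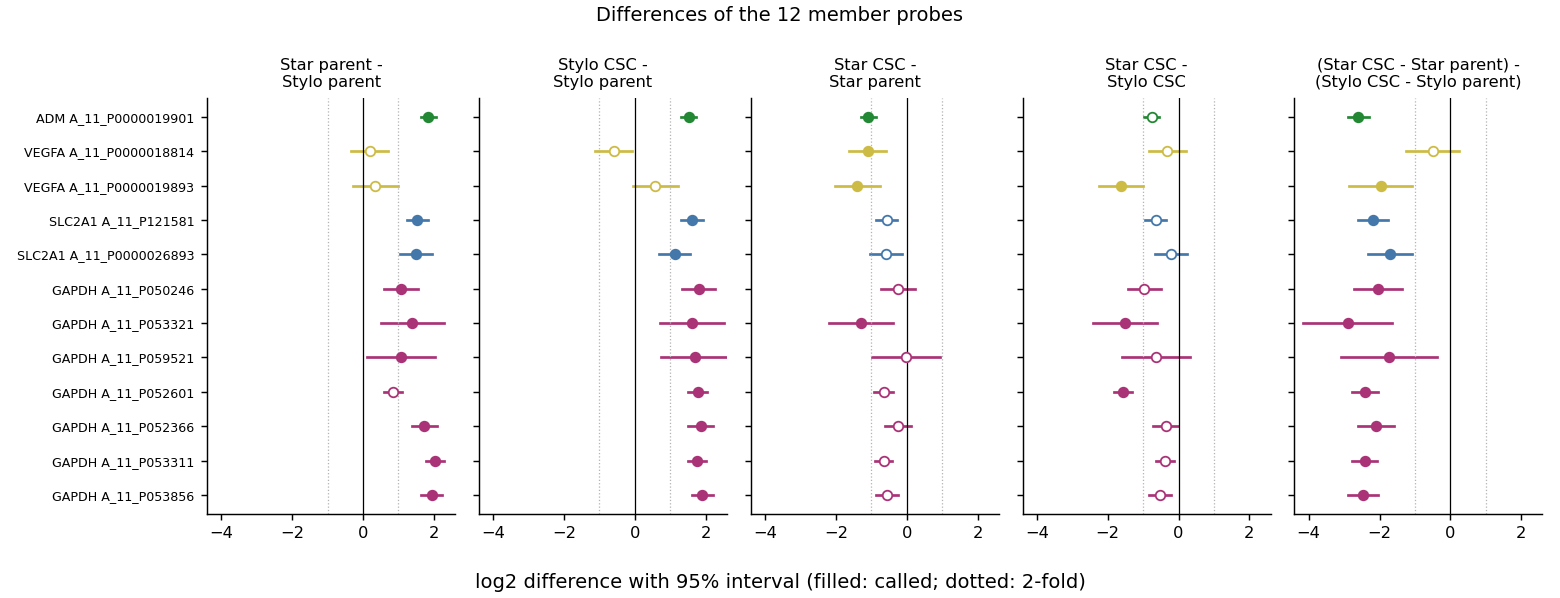
Log2 difference with its 95% interval for each of the 12 probes in the 5 comparisons; filled points were called, and dotted lines mark 2-fold. For Star CSC minus Star parent and for Star CSC minus Stylo CSC all 12 points lie below 0 on this scale, and in the last panel 11 of 12 are called; scaling to spike-in probes turned all 12 points of Star CSC minus Star parent above 0, and other scalings turned some points of both comparisons.

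Sorting the sensitive line gave higher ADM, SLC2A1 and GAPDH, and again no call for VEGFA. Of the 12 probes, 10 had a called rise from Stylo parent to Stylo CSC (7 of GAPDH, 2 of SLC2A1 and 1 of ADM) and 0 a called fall. Over all tested probes 21.9% were called higher and 32.1% lower, and the median difference was -0.28. This comparison uses the same Stylo parent arrays as the comparison of unsorted lines, so the results are not independent of each other. ADM rose by 1.52 (SE 0.086, adjusted p 2.57e-05, limma), 2.88-fold. The brighter SLC2A1 probe rose by 1.61 (SE 0.12, adjusted p 7.07e-05) and the second by 1.12 (SE 0.18, adjusted p 0.00177). The second probe's call was lost without the second Stylo parent array (0.86).

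The 7 GAPDH probes rose by 1.61 to 1.91 with a median of 1.77, and all 7 were called in Stylo CSC, higher than Stylo parent under each scaling tried that does not use GAPDH itself. They differed by only 0.30 among themselves, where the same probes spanned 1.18 in the comparison of unsorted lines. The brightest rose by 1.80 (SE 0.19, adjusted p 0.000298, limma). When each array was instead centred on its own mean GAPDH level, an alternative added after the data were seen, ADM differed by -0.25 and SLC2A1 by -0.16 between Stylo CSC and Stylo parent, where the median of all tested probes was -2.05. On that scale neither gene was called. Both lay above the median probe as on the main scale, because this scaling subtracts the same value from every probe of an array. VEGFA at its brighter probe fell on that scale by 2.36.

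The 2 VEGFA probes disagreed in sign after sorting of the sensitive line. The brighter differed by -0.59 (SE 0.21, adjusted p 0.0439, limma), less than 2-fold, and the dim one by 0.57 (SE 0.26, adjusted p 0.0857). At the brighter probe both Stylo CSC arrays lay below both Stylo parent arrays, and at the dim probe both lay above. Background correction by normexp turned both signs, to 0.80 and -0.77. Summed mesenchymal markers were also higher in Stylo CSC (1290 to 1399 against 663 to 738), with 4 of 5 genes called at their brightest probe. The 2 probes of THY1 were called in opposite directions. VIM and COL1A2 make up most of the sum, and VIM was not called (0.21) where COL1A2 rose by 3.03. The brightness of the Stylo parent arrays was the lowest of the series. The part of the markers and of this brightness in these results was not tested.

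Sorting the resistant line gave lower ADM and VEGFA, and no call for SLC2A1. In Star CSC against Star parent all 12 probes had a difference below 0 and 4 were called lower, with 0 called higher. The called probes were ADM, both VEGFA probes and 1 of 7 GAPDH probes, where 6.51% of all tested probes were called lower and 3.22% higher and the median difference was -0.10. The median over the 12 probes was -0.62. With arrays scaled to the 10 spike-in probes in place of the 75th percentile, all 12 probes turned above 0 and the median of all tested probes moved from -0.10 to 1.57.

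ADM fell by 1.08 (SE 0.086, adjusted p 0.00118, limma), 2.11-fold, with both Star CSC arrays below both Star parent arrays. Its call rests close to the 2-fold limit: it was 0.85 lower with scaling to the array median and 0.92 lower with normexp, and 0.59 higher with spike-in scaling. VEGFA fell by 1.09 (SE 0.21, adjusted p 0.0150) at the brighter probe, 2.13-fold, and by 1.39 (SE 0.26, adjusted p 0.0127) at the dim probe, so the growth factor was lowest in Star CSC at both. The brighter probe's call was lost without the second Star parent array (0.85 lower) and without the first Star CSC array (1.00 lower, adjusted p 0.0621), and it was 0.58 higher with spike-in scaling. The dim probe's call was lost without the first Star CSC array or the first Star parent array (1.29 lower each).

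SLC2A1 differed by -0.56 (SE 0.12, adjusted p 0.0203, limma) and -0.58 (SE 0.18, adjusted p 0.0578) at its 2 probes, both less than 2-fold, and turned to 1.1 and 1.09 with spike-in scaling. GAPDH at its brightest probe differed by -0.25 (SE 0.19, 95% interval -0.72 to 0.23, adjusted p 0.369), and turned to 0.20 with quantile normalization and 1.42 with spike-in scaling. The 7 GAPDH probes ran from -1.29 to -0.015 here on the main scale. Of 6 listed leukocyte markers 3 had a named probe. Their summed scaled signal was 1.02 and 1.07 in Star CSC and 0.0988 and 0.129 in Star parent. CD86 makes up most of the Star CSC sum. CD86 and TYROBP were called higher and CD79A was not called. TYROBP was dim, at 15.9 and 13.2 before scaling in Star CSC, and below background in Star parent. The part of these markers in these results was not tested.

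The wide range came from the Star CSC arrays. At A_11_P053321 they read 7.86 and 6.64, and at A_11_P059521 they read 7.13 and 8.44, so the array that was high at the first probe was low at the second. These are replicate differences of 2.32-fold and 2.48-fold in opposite directions, larger than 96.5% and 96.9% of the replicate differences of all tested probes in that group. At the other 5 GAPDH probes the same arrays differed by 0.033 to 0.41, and in the other 3 groups no GAPDH probe differed by more than 0.35 between replicates. The single GAPDH call in this comparison, at A_11_P053321 (-1.29, SE 0.36, adjusted p 0.0446, limma), was lost without the second Star CSC array (-0.68) and without either Star parent array (-1.28 and -1.30). At A_11_P059521 the difference was -0.015 and turned to 0.64 without the first Star CSC array.

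**Figure D3:**
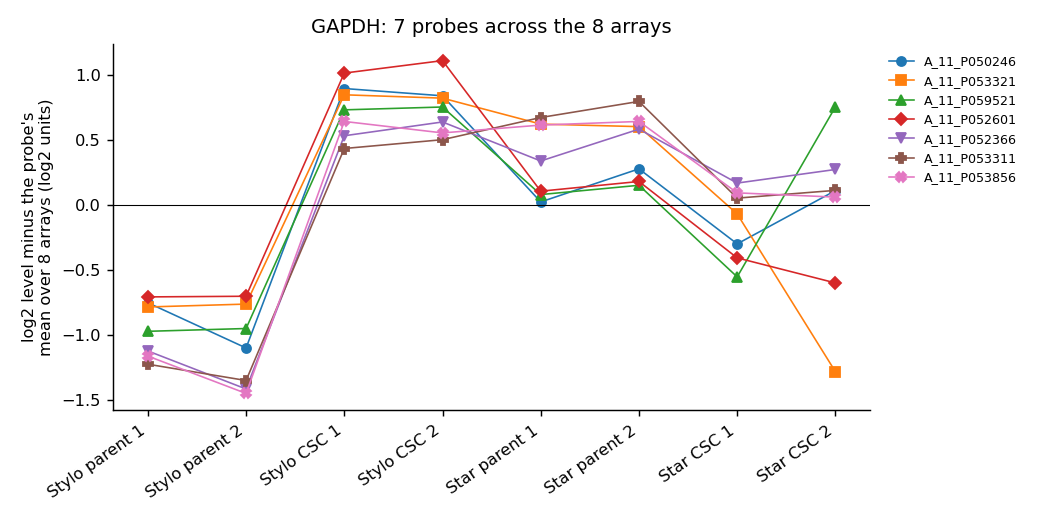
Level of the 7 GAPDH probes on each of the 8 arrays, in log2 units less the probe's own mean over the arrays; each line is 1 probe. All 7 lie below 0 on both Stylo parent arrays and above 0 on both Stylo CSC and both Star parent arrays, and on the second Star CSC array they span -1.28 to 0.76.

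Between the sorted cells of the 2 lines, all 12 probes had a difference below 0 for Star CSC minus Stylo CSC and 3 were called (quantile normalization turned 5 GAPDH probes above 0, spike-in scaling 4 probes and GAPDH scaling ADM among others), where 16.9% of all tested probes were called lower, 12.6% higher, and the median difference was -0.10. Those called were the dim VEGFA probe, at -1.62 (SE 0.26, adjusted p 0.00296, limma), and the GAPDH probes A_11_P052601, at -1.57 (SE 0.11, adjusted p 0.000150), and A_11_P053321, at -1.51 (SE 0.36, adjusted p 0.0143). The last was lost without the second Star CSC array (-0.91) and without either Stylo CSC array (-1.50 and -1.53). ADM was 0.76 lower (SE 0.086, adjusted p 0.000823) and SLC2A1 0.65 lower at its brighter probe (SE 0.12, adjusted p 0.00576), each less than 2-fold. Scaling to GAPDH turned these to 0.091 and 0.21. The second SLC2A1 probe differed by only -0.21 on the main scale (SE 0.18, adjusted p 0.360). GAPDH at its brightest probe was 0.96 lower (SE 0.19, adjusted p 0.00726), just short of 2-fold (1.17 lower without the second Star CSC array), and turned to 0.59 with quantile normalization. The mesenchymal markers differed too, with all 5 called lower in Star CSC, and their part in the result was not tested.

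The effect of the sort itself differed between the lines at 11 of the 12 probes. The difference of sort effects is the sorted minus unsorted difference in Star less the same in Stylo, and it uses all 8 arrays, the Stylo parent arrays included. All 12 values were below 0, where over all tested probes 24.0% were called below 0 and 28.2% above, with a median of 0.15. ADM gave -2.60 (SE 0.12, adjusted p 4.92e-05, limma): the peptide gene rose by 1.52 in one line and fell by 1.08 in the other. SLC2A1 gave -2.18 (SE 0.17, adjusted p 0.000150) and -1.70 (SE 0.26, adjusted p 0.00177). The 7 GAPDH probes gave -2.90 to -1.72, all called and all below 0 under each scaling tried that does not use GAPDH itself; the smallest, A_11_P059521 (adjusted p 0.0344), lost its call without any 1 of the 6 arrays outside Star CSC (-1.76 to -1.69). VEGFA was split, with -1.97 (SE 0.36, adjusted p 0.00419) at the dim probe and -0.50 (SE 0.30, 95% interval -1.24 to 0.24, adjusted p 0.189) at the brighter one. Relative to GAPDH the values became -0.31 for ADM (adjusted p 0.123), 0.12 for SLC2A1 and 1.79 for VEGFA at the brighter probe, against a median of 2.44 over all tested probes.

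**Figure D4:**
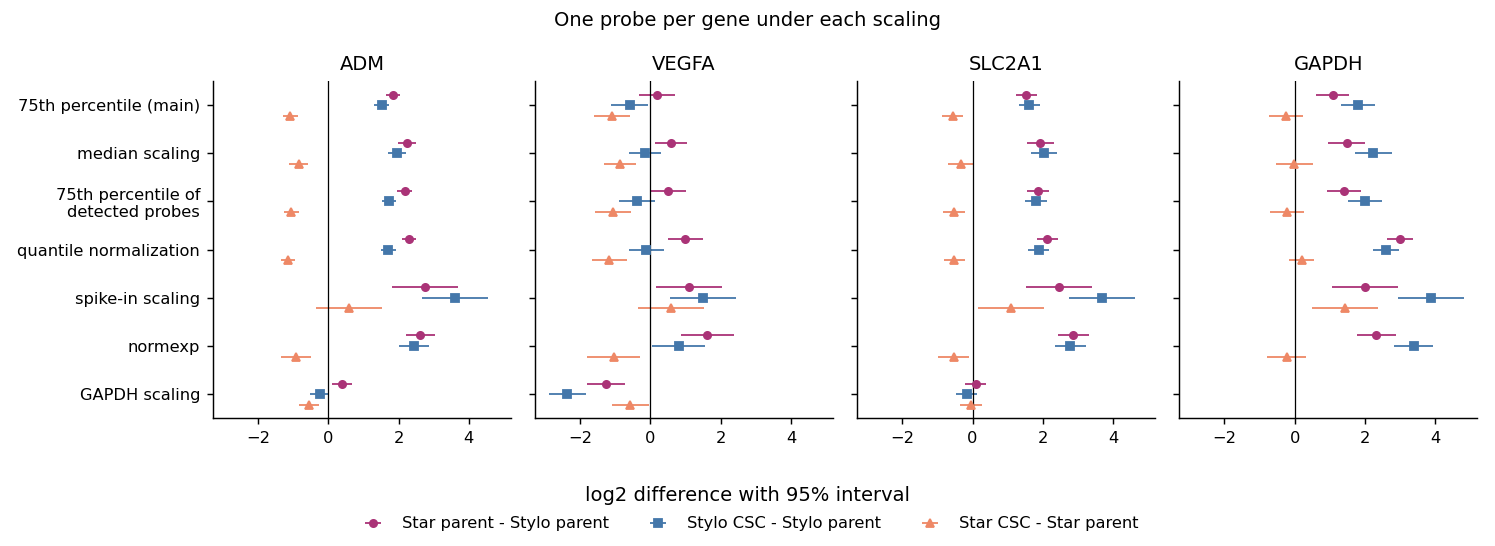
Log2 difference with its 95% interval for the brightest probe of each gene under the main scaling and 6 other settings, in 3 comparisons (GAPDH is not shown scaled to itself). ADM, SLC2A1 and GAPDH stay above 0 in the first 2 comparisons under each setting except GAPDH scaling, where ADM and SLC2A1 give -0.25 and -0.16 for Stylo CSC minus Stylo parent; Star CSC minus Star parent lies above 0 for all 4 genes with spike-in scaling, and for GAPDH with quantile normalization too.

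The settings move the whole distribution as well as these genes. Relative to the main scaling, the median difference of all tested probes in Stylo CSC minus Stylo parent shifted by 0.43 with the array median, 0.34 with quantile normalization, 2.08 with the spike-in probes, -0.49 with normexp and -1.77 with GAPDH scaling. Set against that median, ADM rose from Stylo parent to Stylo CSC by 1.80 on the main scale. With quantile normalization it rose by 1.65 and with normexp by 3.21. SLC2A1 gave 1.89, 1.81 and 3.55 in that order, and GAPDH 2.07, 2.54 and 4.15, so all 3 lay above the median probe. The other settings, like the main one, subtract the same value from every probe of an array, so they cannot change this measure. From Star parent to Star CSC it ran over the settings from -1.16 to -0.69 for ADM and from -1.18 to -0.82 for VEGFA. For GAPDH it ran from -0.14 to 0.19, on either side of 0. The median log2 signal of the spike-in probes ran from 7.05 to 8.85 over the arrays.

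HIF1A, the oxygen-regulated subunit itself, was 1 of 2 HIF regulators with a named probe among 11 listed, and both were tested. At its brightest probe it read 1.99 and 1.99 in Stylo parent, 3.09 and 3.19 in Stylo CSC, 3.46 and 3.47 in Star parent, and 2.81 and 2.85 in Star CSC. At this probe the groups did not overlap and stood in the same order as those of ADM. Another of its 3 probes was called higher in Star CSC than in Stylo CSC, where the brightest differed by -0.30 (adjusted p 0.0287, limma), so that order does not hold for all 3. HIF1A was called higher in Star parent than in Stylo parent, by 1.47 (SE 0.089, adjusted p 2.37e-05, limma), and in Stylo CSC than in Stylo parent, by 1.15 (SE 0.089, adjusted p 7.87e-05), in both at 2 of its 3 probes. In Star CSC it differed from Star parent by -0.63 (adjusted p 0.00577), less than 2-fold, and its sort effects differed by -1.78 (SE 0.13, adjusted p 0.000107). VHL, whose product marks HIF alpha subunits for destruction, was not called in any of the 5 comparisons.

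**Figure D5:**
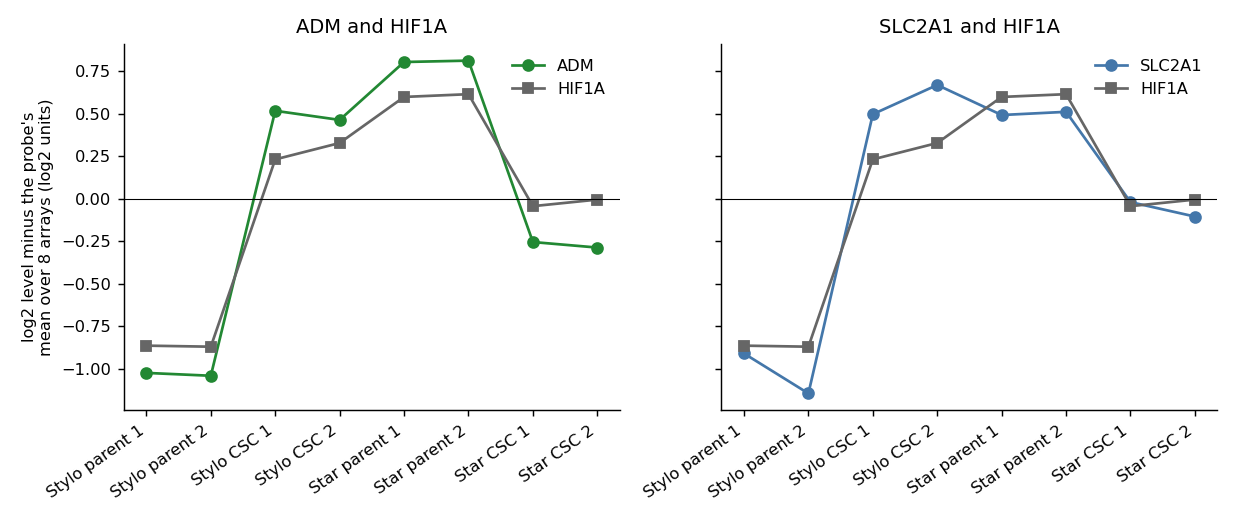
Level of ADM (left) and SLC2A1 (right) with HIF1A on each of the 8 arrays, in log2 units less each probe's own mean over the arrays. In both panels the lines are lowest on the 2 Stylo parent arrays and near or below 0 on the 2 Star CSC arrays.

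Among 725 named genes above background on all arrays, HIF1A was the gene whose centred levels lay closest to those of ADM over the 8 arrays, with a root mean square difference of 0.21 log2 units, followed by PRKDC and MAPT (both 0.22). For SLC2A1 the closest were PRKDC (0.17), HIF1A (0.19) and UTRN (0.21). For GAPDH they were MPP1 (0.15), UACA (0.18) and ATP2B1 (0.19), and for VEGFA IFNA7 (0.13), ATP1B1 (0.17) and ADAM9 (0.25). The median gene lay 0.82 to 1.12 from these probes. Likeness was measured over the same 8 arrays in 4 groups and is a description.

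The list of hypoxia targets held calls in both directions. Of 27 listed targets 10 had a named probe and 9 were tested. Star parent against Stylo parent gave 2 calls higher and 0 lower among the 9, where 24.6% of all tested probes were higher and 31.9% lower. Against the same control, Stylo CSC gave 4 higher and 1 lower, beside 21.9% and 32.1% over all tested probes. The counts were 1 higher and 4 lower in Star CSC against Star parent (3.22% and 6.51% over all tested probes), and 1 higher and 2 lower in Star CSC against Stylo CSC (12.6% and 16.9%). ADM and VEGFA are in this list and in its counts. The gene lists were chosen with earlier results of these data known.

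CA9, a carbonic anhydrase of the cell surface that is a classic HIF target, read 0.54 and 0.67 in Stylo parent, 3.06 and 3.05 in Stylo CSC, 0.026 and 0.35 in Star parent, and 1.30 and 1.53 in Star CSC. Both sorted groups lay above both unsorted ones, unlike ADM. It rose by 2.45 (SE 0.15, adjusted p 3.17e-05, limma) with sorting of the sensitive line and by 1.23 (SE 0.15, adjusted p 0.00362) with sorting of the resistant line, where ADM and VEGFA fell. The difference between these sort effects was -1.22 (adjusted p 0.00302) and was called at 1 of its 2 probes.

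HMOX1, the haem oxygenase gene, was 2.89 higher in Star parent than in Stylo parent (SE 0.20, adjusted p 4.22e-05), but it was above background on only 1 of 2 Stylo parent arrays, and the difference was 0.36 with normexp. NDRG1, a stress-response gene of the hypoxia list named after its values were seen, rose by 2.05 (SE 0.17, adjusted p 0.000104) with sorting of Stylo at the brighter of its 2 probes, the other not being called, and by 0.070 with normexp. With sorting of Star it differed by 0.10 (adjusted p 0.677). Of the vessel receptors, only KDR, the main VEGFA receptor of endothelium, had a named probe: it was below background on all 4 Stylo arrays and at least 1.63-fold higher in Star CSC than in Stylo CSC (adjusted p 0.00214), a difference that normexp turned to -0.13.

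Glycolytic enzymes held calls in both directions. Of 28 listed, 5 had a named probe and were tested (GAPDH, ALDOC, TPI1, LDHB and PKLR), and in Star parent against Stylo parent, as in Stylo CSC against Stylo parent, 2 were called higher and 2 lower. Over all tested probes the shares were 24.6% and 31.9% in the first comparison and 21.9% and 32.1% in the second. ALDOC, an aldolase named after its values were seen, stood higher with GAPDH, by 1.81 (SE 0.096, adjusted p 1.53e-05, limma) in Star parent and by 1.20 (SE 0.096, adjusted p 8.76e-05) in Stylo CSC, the latter at 2 of its 3 probes. LDHB, the lactate dehydrogenase subunit of oxidative tissues, also named after its values were seen, read 8.04 and 8.04 in Stylo parent and 5.76 to 6.48 on the other 6 arrays. It was 1.73 lower in Star parent (SE 0.13, adjusted p 4.74e-05) and 1.63 lower in Stylo CSC (SE 0.13, adjusted p 7.54e-05), yet its unscaled signal of 23169 and 18274 in Stylo parent lay below the 24061 to 35392 of the other arrays, and normexp gave 0.0022 for the first difference. PKLR, the pyruvate kinase of liver and red cells, was 2.62 lower in Star parent than in Stylo parent (SE 0.42, adjusted p 0.00171). It was above background on only 1 of 2 Stylo parent arrays and on neither Star parent array. Its unscaled signals lay close together, at 8.81 and 12.4 in Stylo parent and 9.04 and 6.40 in Star parent, so the size of this difference depends on the scaling.

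Glucose carriers followed SLC2A1 in part. Of 13 listed transport genes 5 had a named probe and 3 were tested. SLC2A9, a urate and hexose carrier, was 1.48 higher in Star parent than in Stylo parent (SE 0.10, adjusted p 4.28e-05, limma) and rose by 1.76 with sorting of Stylo (SE 0.10, adjusted p 3.00e-05), where in Star it differed by 0.26 (adjusted p 0.109). SLC2A4, the insulin-regulated carrier of muscle and fat, was below background on all 4 Stylo arrays and at least 1.76-fold higher in Star CSC than in Stylo CSC (adjusted p 0.000116), a difference that normexp turned to -0.092. In the mitochondrial list, 2 of 24 genes were tested, and SDHB, a subunit of succinate dehydrogenase, was 1.43 lower in Star parent than in Stylo parent (SE 0.10, adjusted p 4.77e-05), a difference that normexp turned to 0.11. Of the pentose phosphate and gluconeogenesis list of 13 only PCK1 had a named probe, and it was not tested because it was not above background on both arrays of any group.

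The sort markers give the context of these cells. CD44, used in the sort, was 0.99 higher in Stylo CSC than in Stylo parent (adjusted p 0.000897, limma) and 0.88 lower in Star CSC than in Star parent (adjusted p 0.00765), each less than 2-fold. ALDH1A1, an aldehyde dehydrogenase gene, was above background in Star CSC alone, at least 3.09-fold over Star parent (adjusted p 0.0167). In bulk RNA, fewer cells that express a gene and less RNA of it per cell cannot be told apart.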

How the data were processed

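Total RNA of the 8 samples was labelled with Cy3 and hybridised to 1-colour Agilent arrays. The authors deposited scanner files made with version 11.5.1.1 of Agilent Feature Extraction, per the submitters' processing notes, whose processed signal is an intensity per spot, per the file headers. The authors' deposited value table, in log2 units, was an alternative. Outlier spots were dropped, log2 signals of a probe averaged and each array's 75th percentile subtracted. Probes flagged well above background on both arrays of 1 or more groups were tested. In R 4.3.3, limma 3.58.1 (lmFit, eBayes) modelled 4 group means over the 8 arrays, with two-sided p-values adjusted by Benjamini-Hochberg over 26825 probes. The fit was checked on simulated data. Symbols came from a RefSeq table (assembly UU_Cfam_GSD_1.0, names only) by accession, naming 2353 of 43603 probes (5.40%). The brightest tested probe stands for a gene. Genes outside the 4 were named by a rule: a set that includes CA9, HIF1A and KDR, and the called gene of each of 7 lists with the largest change in a comparison; others are marked, and 1 gene picked by this rule is not reported here. "At least" folds divide the bright group's mean by the dim group's, each dim array being raised to its lowest detected signal where the probe lay under it. Members and lists were chosen with earlier results of these data known. The number of arrays limits precision.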

Additional observations from a re-analysis of the deposited data

Results flagged for a closer look

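The effect of sorting differed between the lines, by limma's test of the difference of sort effects (Star less Stylo, log2, Benjamini-Hochberg adjusted), at 11 member probes and at 9 other genes of the lists. Over all tested probes 24.0% were called below 0 and 28.2% above 0 in the same test, so such calls were common. ADM gave -2.60, the dim VEGFA probe -1.97, and the SLC2A1 probes -2.18 and -1.70. The GAPDH probes gave -2.04 (A_11_P050246), -2.90 (A_11_P053321), -1.72 (A_11_P059521), -2.42 (A_11_P052601), -2.10 (A_11_P052366), -2.41 (A_11_P053311) and -2.46 (A_11_P053856). Among other genes below 0 were HIF1A at -1.78, ALDOC at -1.81, TPI1, the triosephosphate isomerase gene, at -1.01, SLC2A9 at -1.50, CA9 at -1.22, NDRG1 at -1.95 and HMOX1 at -2.21. Above 0 were LDHB at 1.22 and SLC2A4 at 1.41, the latter with all 4 Stylo arrays below background. Normexp turned the values of LDHB to -0.15 and of HMOX1 to 0.068. TPI1 lost its call without the first Star CSC array (-0.98) or the first Stylo CSC array (-0.99). All of these values use the Stylo parent arrays, the dimmest of the series.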

How the results depend on the processing

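The log2 differences below changed sign or, for the brightest probes of the 4 genes, crossed the call threshold; the comparisons are lines unsorted (Star parent minus Stylo parent), Stylo sort and Star sort (CSC minus parent), lines sorted (Star CSC minus Stylo CSC) and the difference of sort effects (Star less Stylo), and causes were not tested. With GAPDH scaling, added after the data were seen, ADM gave 0.40 (lines unsorted), -0.25 (Stylo sort), -0.56 (Star sort), 0.091 (lines sorted) and -0.31 (sort effects). The brighter SLC2A1 probe gave 0.088 (lines unsorted), -0.16 (Stylo sort), 0.21 (lines sorted) and 0.12 (sort effects), and the second 0.053 (lines unsorted), -0.65 (Stylo sort), 0.64 (lines sorted) and 0.59 (sort effects). The brighter VEGFA probe gave -1.26, -2.36, -0.57, 0.53 and 1.79 in the 5 comparisons in that order, and the dim one -1.10 (lines unsorted), -1.20 (Stylo sort) and 0.33 (sort effects).

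With spike-in scaling the Star sort turned to 0.59 for ADM, 0.58 and 0.28 for VEGFA, 1.1 and 1.09 for SLC2A1, and for GAPDH to 1.42 (A_11_P050246), 0.38 (A_11_P053321), 1.65 (A_11_P059521), 1.02 (A_11_P052601), 1.43 (A_11_P052366), 1.02 (A_11_P053311) and 1.12 (A_11_P053856), and to 0.49 for HMOX1. Lines sorted turned to 0.19 for VEGFA, 0.30 for the second SLC2A1 probe, 0.14 for GAPDH A_11_P052366 and 0.12 for A_11_P053311. VEGFA gave 1.11 for lines unsorted and 1.49 for the Stylo sort, where LDHB gave 0.45, PKLR 0.92 and SLC2A4 0.57. With quantile normalization GAPDH gave 0.20 for the Star sort (A_11_P052366 0.35, A_11_P059521 0.34) and 0.59 for lines sorted (A_11_P052366 0.98, A_11_P053311 0.42, A_11_P053856 0.20, A_11_P059521 0.71), VEGFA -1.06 for sort effects, LDHB 0.037 for lines unsorted and SLC2A4 0.046 for the Stylo sort. With normexp, ADM gave -0.92 for the Star sort, GAPDH -1.30 for lines sorted and A_11_P059521 0.11 for the Star sort; VEGFA gave 1.62 (lines unsorted), 0.80 (Stylo sort) and -1.85 (sort effects), and its dim probe -0.88 (lines unsorted) and -0.77 (Stylo sort). There HMOX1 gave 0.068 (sort effects) and -1.03 (Stylo sort), KDR -0.13 (lines sorted) and -1.41 (lines unsorted), LDHB -0.15 (sort effects) and 0.0022 (lines unsorted), SDHB 0.11 (lines unsorted), and SLC2A4 -0.092 (lines sorted) and -1.66 (lines unsorted). With median scaling the Star sort gave -0.85 for ADM, -0.86 for VEGFA and 0.22 for GAPDH A_11_P059521, which gave 0.013 when scaled over detected probes.

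Member probes called in the Star sort numbered 4, and 1 with median scaling, 1 with normexp and 8 (higher) with spike-in scaling. Spike-in scaling moved the whole distribution there, with a median of all tested probes of 1.57 against -0.10 in the main setting. In lines sorted, called member probes numbered 3, and 1 with quantile normalization and 0 with spike-in scaling. Leaving out 1 array gave 2 to 3 in the Star sort. It gave GAPDH 0.90 to 1.25 (lines unsorted) and -1.17 to -0.76 (lines sorted), VEGFA -0.056 to 0.42 (lines unsorted) and -1.33 to -0.85 (Star sort), its dim probe -0.045 to 0.74 (lines unsorted), and GAPDH A_11_P059521 -0.67 to 0.64 (Star sort) and -1.30 to 0.012 (lines sorted). Over all tested probes, calls ranged under the alternatives from 3902 to 11590 higher (6600 in the main setting) and 4381 to 20140 lower (8568) for lines unsorted, 3777 to 18378 (5879) and 369 to 22764 (8605) for the Stylo sort, 372 to 22175 (863) and 182 to 2380 (1745) for the Star sort, 1413 to 5695 (3376) and 2249 to 5492 (4521) for lines sorted, and 3371 to 15539 (7555) and 4149 to 7401 (6433) for sort effects. Counts over the gene lists moved by over 1.5 times in 60 of 624 list counts, by at most 5 genes.

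Replicate numbers did not pair the arrays: deviations of same-numbered arrays correlated at -0.07 to 0.07. With the replicate number as a block (pairing), the ADM Star sort stayed at -1.08 and called, GAPDH A_11_P053321 (-1.29) lost its Star sort call, and calls over all probes in the Star sort went to 851 higher and 1674 lower. Signal over background limits the dim VEGFA probe, KDR, SLC2A4, HMOX1 and PKLR.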
